A study of Homo sapiens with 6 samples.

Results

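The genes described here encode JAK kinases and STAT factors, the shared machinery through which OSM and many other cytokines act on transcription. They are JAK1, JAK2 and TYK2 among the kinases and STAT2, STAT3, STAT4, STAT5A, STAT5B and STAT6 among the factors. These 9 genes, chosen by their symbol, are 9 of the 17742 named genes on the array. RNA was measured on Human Clariom S arrays from MDA-MB-231, a line of human breast cancer cells of the triple-negative type. In MDA-MB-231-hOSM the cells carried the pUNO1-hOSM vector, which encodes human OSM, and in MDA-MB-231-hC they carried pUNO1 without an insert. Both lines were stably transfected with 2 μg of vector and kept under 10 μg/mL of blasticidin, so that the selection was shared by both. Each group has 3 arrays, numbered as sets 1 to 3, which came from 3 passages that did not follow each other, with both lines grown side by side. Separate transfections were not stated, so the p-values measure only the spread between these samples, and a difference between the lines cannot be told apart from a difference between their transfections. STAT2 has no symbol in the platform annotation used here and was named from the study's own list of called genes, so that its place among the 9 depends on its having been called. For JAK2 the platform annotation names 1 transcript cluster, the array's unit for 1 transcribed locus, and the study's list names another.

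When a cytokine brings its receptor chains together, the JAK kinases bound to them become active and phosphorylate tyrosines on the receptor. STAT factors dock there, are phosphorylated in turn, pair up and enter the nucleus, where most pairs bind palindromes of the kind TTCNNNGAA. OSM acts through OSMR or LIFR together with IL6ST, also called gp130, and in epithelial cells is best known for activating STAT3. STAT2 acts with IRF9 in the interferon response, STAT6 with the IL-4 and IL-13 receptors, and STAT5A and STAT5B with prolactin, growth hormone and many hematopoietic cytokines. STAT4 serves IL-12 in lymphocytes.

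The promoters of the 3 genes that were called higher are shown first, because STAT genes can themselves be targets of STAT factors. Each is the 250 bases before an annotated start in RefSeq GRCh38.p14, written along the gene's strand, with GGGCGG or its complement (the GC box, bound by Sp1) in capitals. The STAT2 window is chr12:56360108-56360357, the STAT6 window chr12:57110290-57110539 and the STAT3 window chr17:42388443-42388692, all on the minus strand. The fourth sequence is a STAT5A window at chr17:42287189-42287438 on the plus strand, shown because it holds the one match to a STAT palindrome, in capitals.
STAT2: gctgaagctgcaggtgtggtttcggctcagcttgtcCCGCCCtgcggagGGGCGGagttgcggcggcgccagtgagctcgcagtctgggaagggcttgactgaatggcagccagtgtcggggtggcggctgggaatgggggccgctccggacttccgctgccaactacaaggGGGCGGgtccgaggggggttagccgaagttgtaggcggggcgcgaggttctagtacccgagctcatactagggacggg
STAT6: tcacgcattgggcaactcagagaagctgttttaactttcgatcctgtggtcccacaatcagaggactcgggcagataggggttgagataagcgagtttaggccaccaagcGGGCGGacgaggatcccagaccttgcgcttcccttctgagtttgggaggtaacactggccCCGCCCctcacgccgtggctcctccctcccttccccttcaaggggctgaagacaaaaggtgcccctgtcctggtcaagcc
STAT3: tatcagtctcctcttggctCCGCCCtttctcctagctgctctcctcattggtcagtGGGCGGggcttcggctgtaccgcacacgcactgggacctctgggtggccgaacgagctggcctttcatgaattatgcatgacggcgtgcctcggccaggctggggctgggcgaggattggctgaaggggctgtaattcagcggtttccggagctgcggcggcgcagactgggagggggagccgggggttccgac
STAT5A: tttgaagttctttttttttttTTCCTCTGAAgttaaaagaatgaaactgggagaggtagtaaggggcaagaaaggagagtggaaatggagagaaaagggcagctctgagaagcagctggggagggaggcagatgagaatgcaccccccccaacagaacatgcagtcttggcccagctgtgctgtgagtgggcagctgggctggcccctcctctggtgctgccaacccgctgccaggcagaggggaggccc

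All 9 genes matched the RefSeq table, with 17 windows in all, since some genes have several annotated starts. The palindrome TTCNNNGAA was in 0 of these 17 windows, against 6.57% of the 35116 windows of all genes. TTC and GAA set 4 bases apart, the wider spacing that STAT6 binds best, were in 1 of the 17, the STAT5A window above at bases 229 to 220 before the start, against 5.38% of all windows. A pair of GAAA with 2 bases between them, the core of the element bound by STAT2 with IRF9, was in 0 of 17, against 3.02%. Both strands were searched, and the motifs may overlap each other. GC boxes were in 7 of the 17 windows, against 42.6% of all windows. These 7 windows belong to 7 of the 9 genes, and the share over all genes was not computed. There were 3 boxes in the STAT2 window and 2 each in those of STAT3 and STAT6. The G and C content of those windows was 67.2% for STAT2, 64.4% for STAT3 and 58.4% for STAT6, and the median over all windows was 58%. Only these letters in these windows were searched, and distal elements were not.

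The values are log2 signals after robust multiarray averaging (RMA). Differences are hOSM minus hC, fitted with limma over 21448 transcript clusters with the set as a block, and a gene is called at a Benjamini-Hochberg adjusted p under 0.1. The study's own call also asks for more than 2-fold, and is named here where it is used. Array medians lay between 6.82 and 6.85. The 3 arrays of a line departed from their mean in mirror image to the 3 arrays of the other line, with a correlation over transcript clusters of -0.993, -0.995 and -0.992 in sets 1, 2 and 3. For the 9 genes the SD of the set means was at most 0.0132, so that the spread measured is that of the difference between the lines. Whether the values were adjusted by set before deposit was not given in the sources used here. The SDs within a line and any p-value without the block therefore describe the values as deposited, and may not be those of separate passages. As a guide to background, the 349 olfactory receptor genes, which breast cells are not known to use, had a median signal of 3.89 and a 95th percentile of 5.77. OSM itself had a signal of 14.80 ± 0.11 in hOSM and 5.14 ± 0.10 in hC (SD, n = 3 each), under that guide in hC. All 7 genes listed as markers of MDA-MB-231 were above the guide, 2 of them called higher and 1 lower, with a mean signal of 14.31 to 14.35 in hOSM arrays and 14.16 to 14.21 in hC arrays. Of the 7 luminal markers 3 were above the guide and all 3 were called, with KRT19 higher by 1.08 and EPCAM and GATA3 lower, at -1.10 and -0.61, while ESR1, PGR and CDH1 were below the guide in both lines. The mean luminal signal was 6.28 to 6.57 in hOSM arrays and 6.30 to 6.56 in hC arrays. Of 11 leukocyte markers 2 were above the guide, CD68 at 12.60 in hOSM and 12.29 in hC, and CD79A at 7.03 and 6.79. The mean signal of the 11 was 5.45 to 5.49 in hOSM and 5.43 to 5.47 in hC, and PTPRC, carried by all leukocytes, was below the guide. MS4A1, under the guide in both lines, and CSF1R, near it, were called higher. Of 8 fibroblast markers 3 were above the guide, COL1A2 (8.74 in hOSM and 8.85 in hC), COL1A1 and, close to it, ACTA2. PDGFRA, PDGFRB and LUM were among those below it, and PDGFRB was called lower. None of the luminal, leukocyte and fibroblast marker calls held whichever set was left out, and their part in the results was not tested. In such bulk RNA, fewer cells that express a gene and less RNA per cell cannot be told apart.

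STAT2, STAT3 and STAT6 were higher in cells with the OSM vector, and none of the 9 genes was called lower. The calls are 3 of 9 genes, all of them STAT factors (3 of 6), and 0 of the 3 kinases. Over all transcript clusters 19.7% were called, 9.22% higher and 10.4% lower. Without STAT2, whose name came from the study's list, 2 of the other 8 genes were called. Of these 8 only STAT6 also passed 2-fold, as did 4.16% of all transcript clusters, 2.60% higher and 1.57% lower. STAT2 passed 2-fold too, but was named from the study's list of called genes, so it adds nothing to that count. The median change on the log2 scale was 0.47 over the 6 STAT genes and 0.11 over the 5 left without STAT2, 0.06 over the kinases, and -0.03 over all transcript clusters.

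STAT2, the partner of IRF9 in the interferon response, had log2 signals of 8.68, 8.84 and 8.91 in hOSM cells, against 7.70, 7.56 and 7.46 in hC cells. The lowest hOSM array lay well above the highest hC array. The group means were 8.81 ± 0.12 in hOSM and 7.57 ± 0.12 in hC (SD, n = 3 each), a difference of 1.24 ± 0.14 (SE) and a fold of 2.36, with a 95% interval of 1.87 to 2.98 and adjusted p = 0.00410. The size of this change exceeded that of 97.2% of all transcript clusters. The call held with any 1 set left out, where the difference was 1.13 to 1.37 and the highest adjusted p was 0.0838, without set 3. Because its name came from a list of called genes, the call and the size of the change only describe STAT2. They add nothing to the count of members.

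STAT6, which transmits the IL-4 and IL-13 signal, had 9.08, 8.84 and 9.15 in hOSM cells, against 7.88, 8.14 and 7.81 in hC cells. Again the groups did not overlap, and the narrowest difference was that of set 2, at 0.70. The means were 9.02 ± 0.16 in hOSM and 7.94 ± 0.17 in hC (SD, n = 3 each), a difference of 1.08 ± 0.16 (SE) and a fold of 2.11, with an interval of 1.62 to 2.76 and adjusted p = 0.0108. The call was lost without set 1, where the difference was 1.02 and adjusted p = 0.105, and without set 3, where they were 0.95 and 0.130.

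STAT3, the factor most closely tied to OSM and IL-6, had 12.21, 12.08 and 11.94 in hOSM cells, against 11.11, 11.26 and 11.39 in hC cells. All hOSM arrays lay above all hC arrays, and the lines were nearest to each other in set 3. The means were 12.08 ± 0.14 in hOSM and 11.25 ± 0.14 in hC (SD, n = 3 each), a difference of 0.82 ± 0.15 (SE) and a fold of 1.77, with an interval of 1.38 to 2.26 and adjusted p = 0.0196. The call was lost without any 1 set, with a difference of 0.69 and adjusted p = 0.127 without set 1, 0.82 and 0.141 without set 2, and 0.96 and 0.101 without set 3. The differences by set were 1.10, 0.82 and 0.55 for STAT3, in the reverse order to those of STAT2, at 0.98, 1.28 and 1.45. The 3 changes were not tested against each other.

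**Figure D1:**
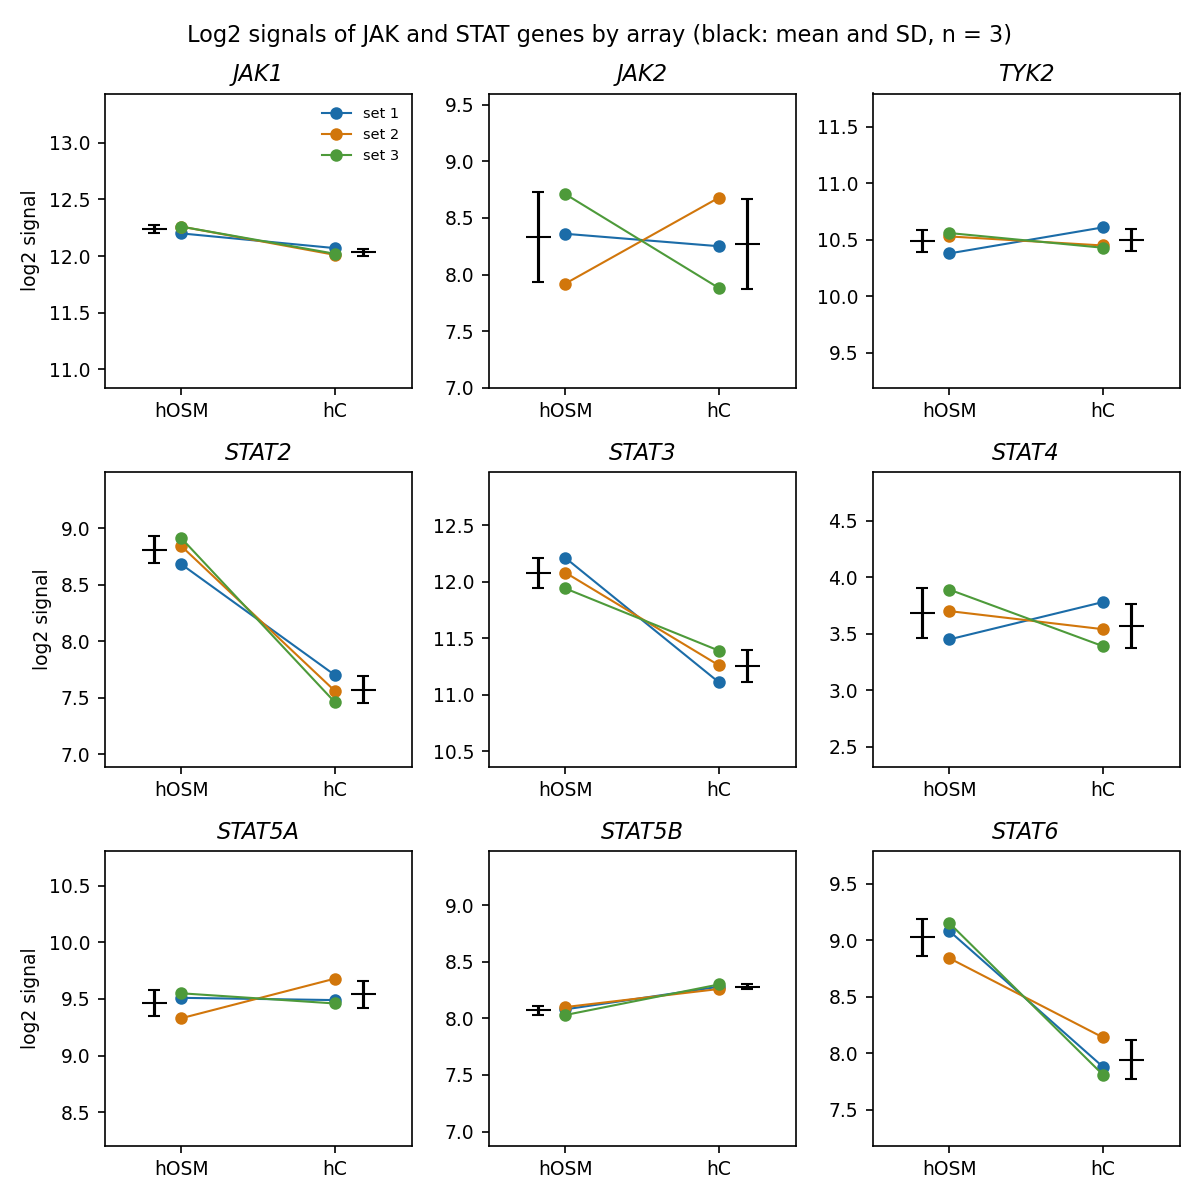
Log2 signal (y axis) of each of the 9 genes in hOSM and hC arrays (x axis), with 1 line per set and the mean and SD of 3 arrays in black beside each group; every panel spans the same number of log2 units. The hOSM arrays lie above the hC arrays for STAT2, STAT3 and STAT6, with a mean of 8.81 against 7.57 for STAT2, while the lines of JAK2 cross.

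None of the 3 kinase genes was called. JAK1, which all receptors of the IL-6 and interferon families need, had 12.20, 12.26 and 12.26 in hOSM cells, against 12.07, 12.01 and 12.02 in hC cells. The arrays did not overlap, but the difference was small, at 0.21 ± 0.12 (SE), a fold of 1.15 with an interval of 0.95 to 1.41 and adjusted p = 0.307. Without the set as a block, JAK1 was called higher, with adjusted p = 0.0213 by limma. TYK2, a kinase of the interferon and IL-12 receptors, had 10.38, 10.53 and 10.56 in hOSM cells, against 10.61, 10.45 and 10.43 in hC cells. These groups overlapped, lower in hOSM in set 1 and higher in sets 2 and 3, and the difference was -0.01 ± 0.13 (SE), with an interval of 0.80 to 1.24 on the fold scale and adjusted p = 0.979.

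JAK2, which serves growth hormone, erythropoietin and IFN-γ as well as the IL-6 family, varied more than any other of the 9 genes between arrays of a line. Its signals were 8.36, 7.92 and 8.71 in hOSM cells, against 8.25, 8.68 and 7.88 in hC cells. The lines differed by 0.11 in set 1, by -0.76 in set 2 and by 0.83 in set 3. The mean difference was 0.06 ± 0.28 (SE), with an interval of 0.65 to 1.67 on the fold scale and adjusted p = 0.909. Changes within those bounds are therefore not excluded by the 3 sets. The transcript cluster that the study's list names JAK2 had 7.54, 7.97 and 7.72 in hOSM cells, against 7.57, 7.15 and 7.38 in hC cells. There the difference was 0.38 ± 0.18 (SE) with adjusted p = 0.228, and set 2 was the set with hOSM furthest above hC, at 0.82. The 2 transcript clusters thus moved in opposite directions in set 2, and neither was called.

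The other 3 STAT genes were not called. STAT5A had 9.51, 9.33 and 9.55 in hOSM cells, against 9.49, 9.68 and 9.46 in hC cells. These overlapped, and the difference was -0.08 ± 0.14 (SE), with an interval of 0.75 to 1.19 on the fold scale and adjusted p = 0.745. STAT5B had 8.08, 8.10 and 8.03 in hOSM cells, against 8.28, 8.26 and 8.30 in hC cells. All hOSM arrays lay below all hC arrays, by 0.21 ± 0.12 (SE) in the mean, which is a fold of 0.86 with an interval of 0.71 to 1.05 and adjusted p = 0.297. Without the set as a block STAT5B was called lower, with adjusted p = 0.0186 by limma. STAT5A and STAT5B are near-identical neighbouring genes, and whether the array's probes keep them apart is not given in the sources used here, so their separate values are uncertain. STAT4 had 3.45, 3.70 and 3.89 in hOSM cells, against 3.78, 3.54 and 3.39 in hC cells. All of its arrays were under the background guide of 5.77, and the difference was 0.11 ± 0.18 (SE) with adjusted p = 0.726. Counting by overlap alone, hOSM lay above hC for 4 of the 9 genes (STAT2, STAT3, STAT6 and JAK1) and below for 1 (STAT5B), against 22.2% and 27.7% of all transcript clusters, or 50.0% in either direction. The 4 include STAT2, which was named from the study's list of called genes.

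**Figure D2:**
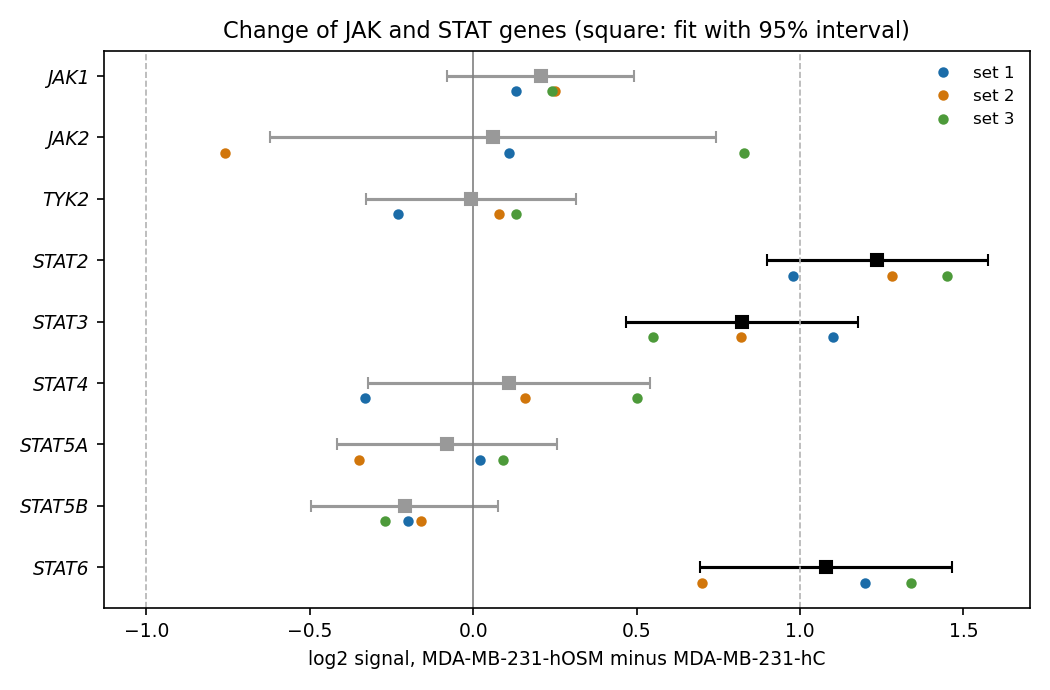
Difference in log2 signal, hOSM minus hC (x axis), of the 9 genes (y axis), with the fitted value and its 95% interval as a square and bar, black where called and grey where not, and the 3 sets as coloured points; dashed lines mark 2-fold. The intervals of STAT2, STAT3 and STAT6 lie above 0, and the sets of JAK2 run between -0.76 and 0.83.

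Around the 9 genes, 119 of 124 listed genes of the pathway had a row, and 41 of them were called higher and 10 lower. That is 34.5% and 8.40%, against 9.22% and 10.4% of all transcript clusters. Of these, 23 rose and 3 fell past 2-fold. The calls that held whichever set was left out were 16 higher and 2 lower of the 119 genes. Of all 21448 transcript clusters they were 385 higher and 210 lower. Several genes stand in more than 1 list, and the counts describe the listed genes without testing them.

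**Figure D3:**
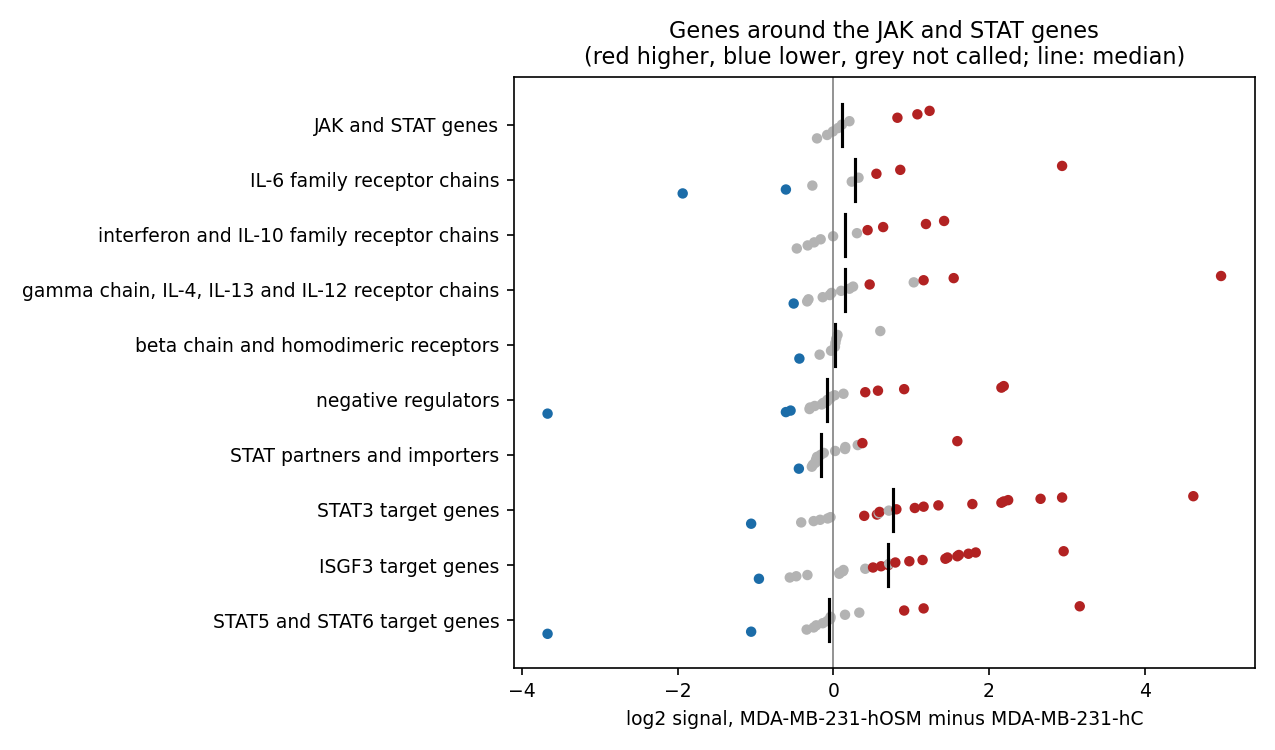
Difference in log2 signal, hOSM minus hC (x axis), of each gene in 9 pathway lists and of the 9 JAK and STAT genes (rows), red where called higher, blue where called lower and grey where not called, with the median of each row as a black line. The STAT3 targets and ISGF3 targets have medians of 0.76 and 0.71, against 0.11 for the JAK and STAT genes.

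On the OSM and STAT3 axis, OSMR, the OSM-specific receptor chain, was higher at 13.18 ± 0.15 in hOSM and 10.24 ± 0.17 in hC (SD, n = 3 each), 7.67-fold, with adjusted p = 0.000346. IL6ST, the chain shared by the family, was higher by 0.86 ± 0.15 (SE) on the log2 scale, with adjusted p = 0.0178, and lost the call without set 2 (0.91, adjusted p = 0.125) or set 3 (0.70, adjusted p = 0.133). LIFR, the chain shared with LIF, was lower, at 7.50 ± 0.31 in hOSM and 9.43 ± 0.31 in hC (SD, n = 3 each), with adjusted p = 0.00486. Of the 8 IL-6 family receptor chains measured, 3 were called higher (37.5%) and 2 lower (25%), against 9.22% and 10.4% of all transcript clusters. IL6R, 1 of the 3 that were higher, was under the guide in both lines. Of 22 measured STAT3 targets 14 were higher (63.6%) and 1 lower (4.55%), with a median of 0.76. FOS and CEBPD, among the 14, were under the guide in both lines. Without any 1 set, 7 of the 14 held. Among them were ICAM1, an adhesion molecule, higher by 4.63 on the log2 scale (adjusted p = 0.000414), JUNB, a subunit of AP-1, higher by 2.25 (adjusted p = 0.000585), and VEGFA, the angiogenic factor, higher by 1.79 (adjusted p = 0.000924). LBP, an acute phase protein, had a mean of 6.88 in hOSM and 4.21 in hC (adjusted p = 0.0113), a call lost without set 3 (adjusted p = 0.138). All hC arrays of LBP were under the guide, and set against the guide it was at least 2.15-fold higher. CCND1, cyclin D1, was the one that fell, at 13.34 in hOSM and 14.39 in hC, with adjusted p = 0.00440. Other classical targets moved less: MYC was higher by 0.56 (adjusted p = 0.0331) and MCL1, which protects cells from apoptosis, by 0.59 (adjusted p = 0.0348), and both lost the call without any 1 set, with adjusted p of up to 0.161 and 0.171. BCL2L1, another protector, differed by -0.25 with adjusted p = 0.225.

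On the interferon and STAT2 axis, IRF9, which gives the STAT2 complex its DNA contact, was higher by 1.59 ± 0.14 (SE), 3.02-fold. Its signals were 9.40, 9.30 and 9.54 in hOSM cells, against 7.81, 7.97 and 7.68 in hC cells, with adjusted p = 0.00193, and the call held without any 1 set. Of 10 interferon and IL-10 receptor chains, 4 were called higher (40%) and 0 lower, against 9.22% and 10.4% of all transcript clusters. IFNAR2, the chain of the type I interferon receptor on which STAT2 is held, was higher at 11.10 in hOSM and 9.91 in hC, 2.28-fold (adjusted p = 0.00742), and IL10RB, shared by IL-10 and IFN-λ, was higher by 1.42, 2.68-fold (adjusted p = 0.00309). IFNAR1, the chain that binds TYK2, was higher by 0.64 (adjusted p = 0.0291) and IFNGR1, of the IFN-γ receptor, by 0.44 (adjusted p = 0.0715). These last calls were lost without any 1 set, with adjusted p of up to 0.162 for IFNAR1 and 0.255 for IFNGR1. Of 23 targets of ISGF3, the complex that STAT2 forms with IRF9, 13 were higher (56.5%) and 1 lower (4.35%), with a median of 0.71. IFI44L and IRF7, among the 13, were under the guide in both lines. Without any 1 set, 4 of the 13 held. IFITM1, which blocks viral entry, was higher by 1.83 (adjusted p = 0.00193) and MX1, an antiviral GTPase, by 1.44 (adjusted p = 0.00239). Its relative MX2 had a mean of 7.17 in hOSM and 4.21 in hC (adjusted p = 0.000414). All hC arrays of MX2 were under the guide, and set against the guide it was at least 2.63-fold higher. IFIT1 and IFIT3, which bind viral RNA, were higher by 1.61 (adjusted p = 0.0455) and 1.74 (adjusted p = 0.0228). Without set 3 these were 1.14 for IFIT1 (adjusted p = 0.260) and 1.22 for IFIT3 (adjusted p = 0.103). Without set 2 the calls of IFIT1 (adjusted p = 0.251) and IFIT3 (adjusted p = 0.158) were lost too. ISG15, a ubiquitin-like protein of the same response, had 6.31, 6.27 and 6.35 in hOSM cells, against 6.24, 6.28 and 6.18 in hC cells, and was not called (adjusted p = 0.718). OAS1, which senses double-stranded RNA, was the one called lower (adjusted p = 0.0525), with means of 4.81 in hOSM and 5.76 in hC. All hOSM arrays of OAS1 were under the guide, while its hC arrays, at 5.80, 6.08 and 5.41, lay on either side of it. The call was lost without set 1 or set 2 (adjusted p of 0.237 and 0.227).

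On the IL-4, IL-13 and STAT6 axis, IL4R was higher, with 11.25, 11.10 and 11.34 in hOSM cells, against 10.07, 10.20 and 9.94 in hC cells, 2.23-fold and adjusted p = 0.00532. IL13RA1, which with IL4R forms the receptor that non-hematopoietic cells use, had 13.19, 13.30 and 13.22 in hOSM cells, against 11.74, 11.63 and 11.70 in hC cells, 2.92-fold and adjusted p = 0.00117. The arrays of the lines did not overlap for either gene, and both calls held without any 1 set. IL13RA2, a second IL-13 receptor often described as a decoy, had 8.18, 8.94 and 9.40 in hOSM cells, against 4.46, 3.79 and 3.32 in hC cells. The difference between the lines had adjusted p = 0.00123. All hC arrays of IL13RA2 were under the guide, and set against the guide IL13RA2 was at least 8.37-fold higher. Of the 14 chains in this list, which also holds the common gamma chain and IL-12 receptors, 4 were called higher (28.6%) and 1 lower (7.14%). The 1 that was lower, IL23R, was under the guide in both lines. Of all transcript clusters 9.22% were called higher and 10.4% lower. The STAT5 and STAT6 targets were listed together, and 3 of 14 were higher (21.4%) and 2 lower (14.3%), with a median of -0.06. Those higher were ID1, an inhibitor of basic helix-loop-helix factors, by 3.17 (adjusted p = 0.00119), IL4R again, and SOCS1 (adjusted p = 0.0284). SOCS1 was under the guide in both lines, at 5.17 in hOSM and 4.26 in hC, and its call was lost without set 2 or set 3 (adjusted p of 0.159 and 0.151). The 2 that were lower were CCND1 and SOCS2. CCL26, an eotaxin that IL-4 and IL-13 induce through STAT6, was under the guide in both lines, at 4.95 in hOSM and 5.03 in hC, with adjusted p = 0.701. CISH, a target of STAT5, was under the guide in both lines too, at 3.91 in hOSM and 3.95 in hC, with adjusted p = 0.887. Of 8 measured chains of the beta chain and homodimeric families, which use JAK2 and STAT5, 0 were called higher and 1 lower (12.5%). Their median was 0.02, but only 3 of the 8 had a mean signal above the guide, which limits what the others can show.

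The genes that restrain JAK and STAT signaling moved in both directions, with 5 of 19 measured higher (26.3%) and 3 lower (15.8%). Their median was -0.08, and of all transcript clusters 9.22% were called higher and 10.4% lower. SOCS3, which binds gp130 and blocks JAK1, JAK2 and TYK2, had 6.60, 7.09 and 6.82 in hOSM cells, against 4.92, 4.44 and 4.67 in hC cells, with adjusted p = 0.00190. All hC arrays were under the guide, against which SOCS3 was at least 2.09-fold higher. BCL6, a repressor that binds many STAT6 sites, was higher by 2.19 (adjusted p = 0.000541). SOCS2, which restrains growth hormone signaling through STAT5B, went the other way, with 8.35, 7.28 and 7.65 in hOSM cells, against 10.82, 11.90 and 11.58 in hC cells. Its difference was -3.67 ± 0.37 (SE) with adjusted p = 0.00286, and the call was lost without set 3 (-3.54, adjusted p = 0.101). PTPN1 and PTPN2, phosphatases of JAK kinases, were higher by 0.41 (adjusted p = 0.0737) and 0.57 (adjusted p = 0.0360). SOCS6 and SOCS7 were lower, by -0.55 (adjusted p = 0.0371) and -0.61 (adjusted p = 0.0382). These last 4 calls were lost without any 1 set, with adjusted p of up to 0.237 for PTPN1, 0.169 for PTPN2, 0.177 for SOCS6 and 0.206 for SOCS7. Among 15 measured partners and nuclear importers of STAT factors, 2 were called higher (13.3%), 1 lower (6.67%) and 12 neither. Higher were IRF9 and CREBBP, a coactivator, and lower was KPNA5, an importin. CREBBP (0.37, adjusted p = 0.0931) and KPNA5 (-0.44, adjusted p = 0.0856) lost the call without any 1 set.

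Some STAT genes lie side by side in the genome, and each gene was set against its neighbours on the array. On chromosome 17 the array order is STAT5B, STAT5A, STAT3, and STAT3 was called higher while the others were not. The gene after STAT3, CAVIN1, a coat protein of caveolae, differed by -0.13 with adjusted p = 0.551. NAGLU, further out, and GHDC, on the far side of STAT5B, were called higher, at 0.45 (adjusted p = 0.0616) and 0.54 (adjusted p = 0.0977), and both calls were lost without any 1 set (adjusted p of up to 0.224 and 0.373). Around STAT2 on chromosome 12, CS, IL23A and APOF were not called, at -0.17, 0.12 and 0.03, with IL23A and APOF under the guide in both lines, and TIMELESS, a replication fork protein, was lower at -0.68 (adjusted p = 0.0248), a call lost without any 1 set (adjusted p of up to 0.160). Around STAT6, further along chromosome 12, NAB2 differed by 0.35 (adjusted p = 0.131), and LRP1, an endocytic receptor, was higher at 10.55 in hOSM and 8.69 in hC, 3.63-fold (adjusted p = 0.000997). NEMP1, on the other side, was lower at -0.58 (adjusted p = 0.0333), a call lost without any 1 set (adjusted p of up to 0.173). Beside STAT4, NABP1, a single-stranded DNA binding protein, was higher at 0.99 (adjusted p = 0.00536) and CAVIN2, another caveolar protein, lower at -1.55 (adjusted p = 0.00486), a call lost without set 3 (adjusted p = 0.101). Beside JAK1, RAVER2, an RNA binding protein, was lower at -0.82 (adjusted p = 0.0165), a call lost without set 2 or set 3 (adjusted p of 0.128 and 0.139). CACHD1 and LINC01359, also beside JAK1, were called higher, at 0.63 (adjusted p = 0.0288) and 0.48 (adjusted p = 0.0559), and lost the call without any 1 set (adjusted p of up to 0.171 and 0.228). None of the 4 neighbours of JAK2 or of the 4 of TYK2 was called. Over all 9 genes, 28 neighbours that are not among them held 6 genes called higher and 4 lower, with a median of -0.04. For comparison, 9.22% of all transcript clusters were called higher and 10.4% lower. Of the 9 genes 3 were called higher and 0 lower, with STAT2, named from the study's list of called genes, among the 3. These counts were not tested against each other.

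**Figure D4:**
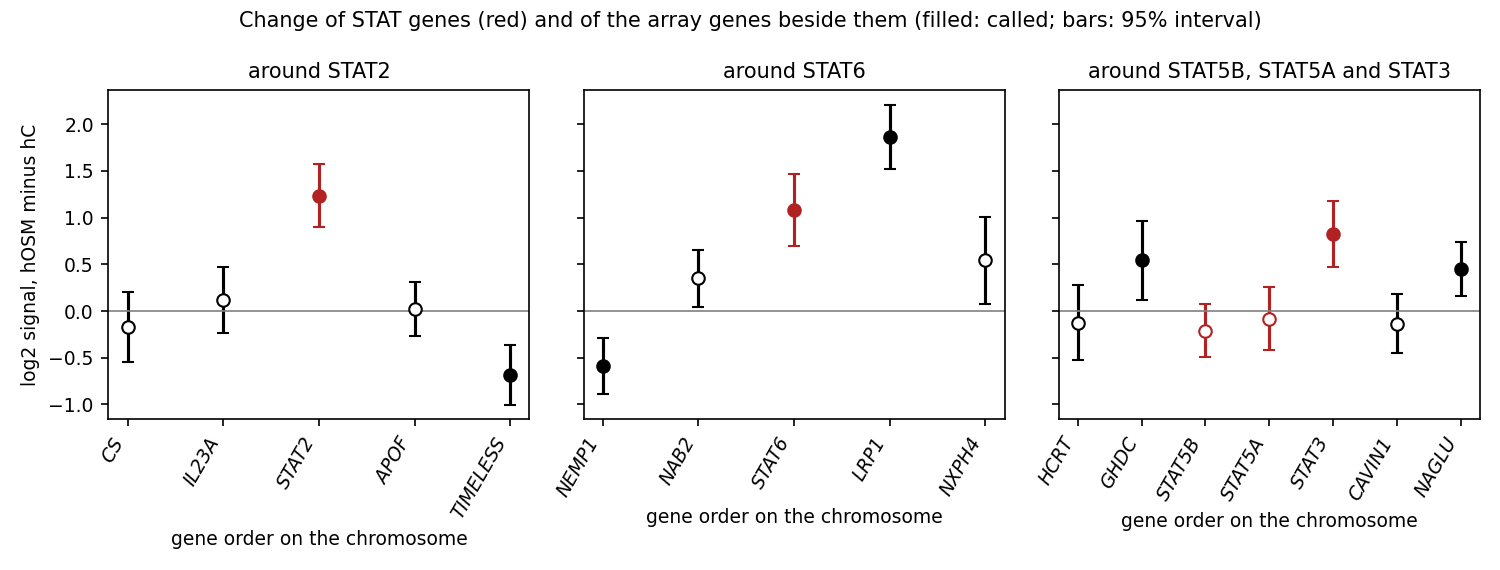
Difference in log2 signal, hOSM minus hC (y axis), of STAT genes (red) and the nearest genes on the array in chromosome order (x axis), filled where called, with 95% intervals. STAT2 stands at 1.24 between IL23A and APOF at 0.12 and 0.03, and LRP1, next to STAT6, at 1.86.

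Across the 6 arrays, the named genes whose signal was most like that of STAT2 were NDRG1, NRIP1, CDA, MAP3K5 and ID1, with Pearson's r between 0.999738 for ID1 and 0.999854 for NDRG1. The arrays fall into the 2 lines with mirrored sets, so that these values rest on 3 differences, and they are given as a description.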

How the data were processed

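RNA of both lines was measured on 3 arrays each. The values that the authors deposited are log2 signals by transcript cluster, computed with RMA in the Transcriptome Analysis Console 4.0 per the labels. Which RMA variant, library version and genome build were used was not given in the sources used here. The labels name TRIzol for extraction, and the study's methods name another kit for arrays. Its arrays of fibroblasts are not used here.

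Groups were compared with limma 3.58.1 (R 4.3.3, lmFit and eBayes) on 6 arrays and 21448 transcript clusters, with the set as a block. Set numbers come from the labels, which give them to both lines, and same-numbered arrays departed from their group means in mirror image (r of -0.993, -0.995 and -0.992), so that the set means carried almost no variation (median SD 0.00764, against 0.225 for the set differences). The block leaves 2 residual degrees of freedom, against 4 without it. The number of arrays limits the precision. The fit was tested on simulated data.

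The platform annotation names 17709 transcript clusters, the study's supplementary list 82 more (identifiers and symbols only), and 3657 are unnamed. Of several transcript clusters with 1 symbol, that with the highest mean was used. Genes and lists were chosen with earlier results of these data known. Named genes were the 9 genes, the ligand and its receptors, 2 neighbours on each side in RefSeq order, and the 5 genes most like STAT2. From each list up to 5 genes that were called and past 2-fold were added, those with the largest change. Other genes named from the lists were chosen after their values were seen. Where all hC arrays of a gene were under the background guide, its fold is the hOSM mean over the guide. The adjusted p given for such a gene is still that of hOSM against hC, and the fold over the guide was not tested. Promoters came from RefSeq GRCh38.p14. Alternatives were no block, quantile normalization, centring on the array median, leaving out the dimmest 33.3% of transcript clusters, trended and robust eBayes, an adjusted p under 0.05, the other JAK2 transcript cluster and leaving out each set; leaving out STAT2 was added after the data were seen.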

Additional observations from a re-analysis of the deposited data

How the results depend on the processing

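The count of called genes among the 9 stayed at 3 under quantile normalization, centring, the filter on dim transcript clusters, trended and robust eBayes, an adjusted p under 0.05 and the other JAK2 transcript cluster. Without the replicate block, in which the pairing by set is ignored, 5 of the 9 were called, with JAK1 higher and STAT5B lower added, and 79 pathway genes, against 51 with it, and 10235 of all transcript clusters, against 4217. The same fit called BCL2L1 lower (adjusted p = 0.0136). With 1 set left out, 1 to 2 of the 9 were called and 1 to 2 passed 2-fold. STAT2, named from the study's list of called genes, was called each time, STAT6 only without set 2, and STAT3 never. In these fits 20 to 29 pathway genes and 754 to 1308 of all transcript clusters were called, with 1 residual degree of freedom left. At an adjusted p under 0.05, 38 pathway genes and 2597 of all transcript clusters were called. Without STAT2 and with all sets kept, 1 of the genes passed 2-fold and 2 were called. Small differences changed sign. TYK2 was 0.00 under quantile normalization and ran between -0.08 and 0.10 with 1 set left out, JAK2 between -0.33 and 0.47, STAT4 between -0.08 and 0.33, STAT5A between -0.16 and 0.06, and CISH between -0.22 and 0.06, with 0.04 without set 3. None of these passed the threshold in either direction, and the cause was not tested. STAT4, SOCS1, CCL26, CISH, FOS, CEBPD, IL6R, IL23R, IFI44L and IRF7 were at the level of background in both lines. So were the hOSM arrays of OAS1 and the hC arrays of MX2, SOCS3, LBP and IL13RA2. This limits what the differences of these genes can show.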
